A study of Arabidopsis thaliana with 6 samples.

Results

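The genes described here encode the small subunits of Rubisco and the enzymes of the Calvin cycle, the pathway that fixes carbon dioxide in the chloroplast. They were chosen by locus as 10 named genes, and all 10 were found among the 24434 genes of the deposited table. They are the Rubisco small subunit genes RBCS1A (AT1G67090), RBCS1B (AT5G38430), RBCS2B (AT5G38420) and RBCS3B (AT5G38410), Rubisco activase (RCA, AT2G39730) and phosphoribulokinase (PRK, AT1G32060). The others are the subunit genes GAPA (AT3G26650) and GAPB (AT1G42970) of chloroplast glyceraldehyde-3-phosphate dehydrogenase, sedoheptulose-bisphosphatase (SBPASE, AT3G55800) and the plastid fructose-bisphosphatase HCEF1 (AT3G54050).

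RNA sequencing was carried out on stems of Arabidopsis thaliana, ecotype Columbia. The stems came from 3 plants overexpressing Bnt07G011994 (the overexpressor) and 3 wild-type (WT) plants. Per the labels' protocols, all plants were greenhouse-grown at 22 °C with days of 15 h light and nights of 9 h, and the stems of a single plant, about 10 cm long, made each sample. The sources used here do not state the promoter of the transgene, the number of transgenic lines or the hour of harvest.

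Rubisco joins carbon dioxide to ribulose bisphosphate. Its large subunit is encoded in the chloroplast genome and its small subunits by a nuclear gene family. The rest of the cycle reduces the product to triose phosphates and rebuilds the acceptor. In stems the pathway runs mainly in the green outer cell layers, and transcripts of many of its genes respond to light and to the clock. The large subunit gene was not analysed here.

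The small subunit genes are close copies, and their sequences are shown first because they bear on how reads can be assigned. RBCS1A lies on chromosome 1 (25048158 to 25049667), whereas RBCS3B (15376988 to 15378642), RBCS2B (15380907 to 15382071) and RBCS1B (15383167 to 15385320) follow each other on chromosome 5. All 4 are protein-coding genes on the minus strand, and coordinates are those of the RefSeq annotation of TAIR10.1. The second coding exon, 135 bases long in each gene, reads as follows, 5′ to 3′, with capitals at the 14 positions where the 4 copies are not all alike.
RBCS1A, chr1:25048838-25048972: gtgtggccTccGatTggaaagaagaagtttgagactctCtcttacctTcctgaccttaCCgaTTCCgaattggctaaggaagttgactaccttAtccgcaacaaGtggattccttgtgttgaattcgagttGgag
RBCS1B, chr5:15384761-15384895: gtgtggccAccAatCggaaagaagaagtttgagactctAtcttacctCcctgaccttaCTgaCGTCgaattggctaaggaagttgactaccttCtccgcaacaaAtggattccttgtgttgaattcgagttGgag
RBCS2B, chr5:15381583-15381717: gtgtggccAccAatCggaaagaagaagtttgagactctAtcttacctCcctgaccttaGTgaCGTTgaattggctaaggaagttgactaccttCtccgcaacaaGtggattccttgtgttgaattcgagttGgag
RBCS3B, chr5:15377911-15378045: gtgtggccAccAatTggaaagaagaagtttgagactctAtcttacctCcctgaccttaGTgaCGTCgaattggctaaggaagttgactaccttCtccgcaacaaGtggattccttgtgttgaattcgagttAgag

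Over the whole coding sequence, the copies on chromosome 5 were 96.7 to 97.3% identical to each other. RBCS1A was 90.4 to 90.6% identical to them. RBCS1B and RBCS3B shared the longest identical run, of 233 bases. Of all 100-base windows of the spliced transcripts, 7.44% of those of RBCS1B and 8.93% of those of RBCS3B also occurred in another gene. At that length it was 0% for RBCS1A and RBCS2B. Of 50-base windows, 21.4% were shared for RBCS2B, 14.6% for RBCS3B, 13.9% for RBCS1B and 1.42% for RBCS1A. Reads from such stretches cannot be given to a single copy, and the sources used here state neither the read length nor how such reads were treated. Among the other 6 genes, only HCEF1 shared such windows (1.67% at 100 bases and 4.74% at 50 bases). It shared them with a gene on the opposite strand whose exons overlap 156 bases of it.

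FPKM, fragments per kilobase of transcript scaled to library size, is a level per length. The length behind these values is that of all annotated exons of a gene, 1894 bases for RBCS1B and 935 for RBCS2B. Levels set beside each other between genes therefore depend on the annotation. In the overexpressor, RBCS1B took a mean of 2.03% of summed RBCS FPKM and 3.06% of RBCS reads. RBCS1A had the highest FPKM of all genes in each of the 6 libraries. By mean FPKM it was followed by RBCS3B, RCA, RBCS2B, GAPA, GAPB, PRK, SBPASE, HCEF1 and RBCS1B. The order of some neighbours was not stable. RBCS3B lay above RCA in 4 of 6 libraries, RBCS2B above GAPA in 5, GAPB above PRK in 5, SBPASE above HCEF1 in 5, and HCEF1 above RBCS1B in 4. Together the 10 genes took 4.60, 4.22 and 4.07% of all FPKM in overexpressor replicates 1, 2 and 3, and 3.46, 4.70 and 4.60% in WT replicates 1, 2 and 3.

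WT replicate 1 stood apart from the other libraries across the table. It was the lowest of the 6 in 31.9% of the 16870 genes tested and the highest in 42.4%. Values without it are given beside results whose sign or size rests on it. The libraries held 44597288 to 45642240 reads, recovered from the FPKM values, and the 10 genes had at least 23611 reads in each library, a counting error of at most 0.651%. Stem markers were present, with the xylem gene CESA4 between 195 and 306 FPKM in the overexpressor and at 37.1, 245 and 259 FPKM in WT replicates 1, 2 and 3. No flower, seed or root marker in the table passed 1.54 FPKM.

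**Figure D1:**
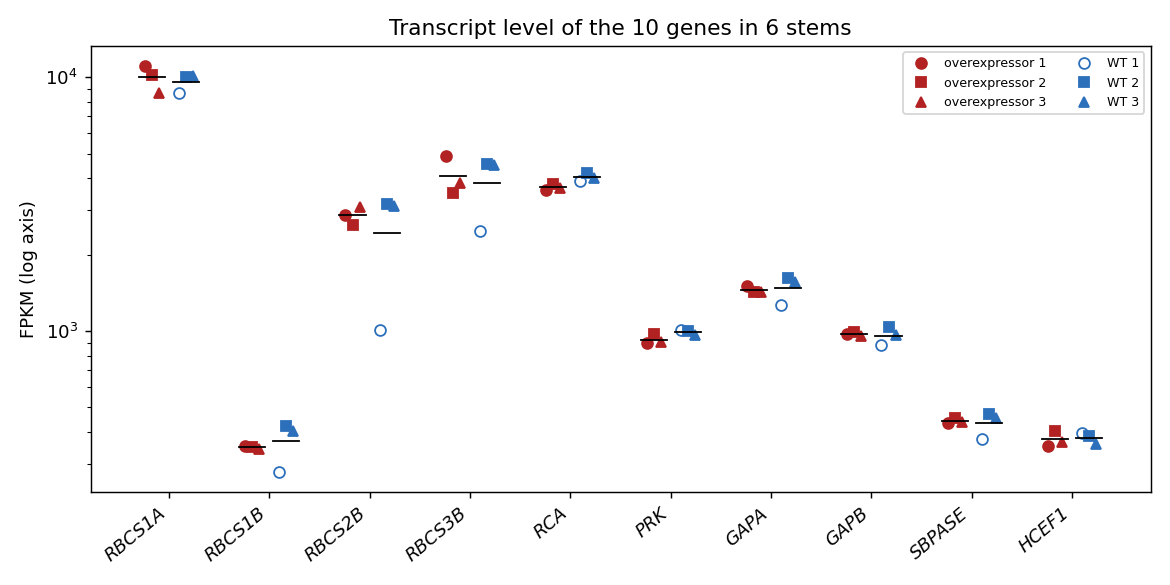
FPKM (log axis) of the 10 genes, overexpressor plants in red to the left of WT plants in blue, with black bars for the group means and an open circle for WT replicate 1. RBCS2B in WT replicate 1, at 1007 FPKM, lies below the other 5 libraries, which span 2618 to 3171 FPKM.

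The comparison of overexpressor with WT stems asks which transcripts differ between the genotypes. No member passed the threshold in either direction. The test was limma on log2(FPKM + 1), with p-values adjusted by Benjamini-Hochberg over all genes tested and a threshold of 0.05. All 10 genes passed the filter of a mean of 1 FPKM. At an unadjusted limma p under 0.05 the count was also 0 of 10, and limma-voom on the recovered reads gave 0 of 10 on both criteria. Over all genes tested, 0.0119% were called and 5.43% had an unadjusted p under 0.05. The median log2 fold change was 0.00 over the members (5 of 10 positive) and -0.04 over all genes tested (7139 of 16870 positive). Without WT replicate 1, limma called 0 of 10 members against 0.136% of all genes. The members' median was then -0.11, with 1 of 10 positive, against -0.02 and 7514 of 16870 positive over all genes tested. In that fit the WT side is a pair of libraries.

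Rubisco small subunit genes set the widest spread among the members. RBCS1A, the most abundant small subunit transcript, stood at 11041, 10219 and 8671 FPKM in overexpressor replicates 1, 2 and 3, and at 8655, 10046 and 10107 FPKM in WT replicates 1, 2 and 3. The groups overlapped, and the highest and lowest of the 6 libraries differed 1.28-fold. Its log2 fold change was 0.05, with a 95% interval of -0.43 to 0.53 (limma adjusted p = 0.943), and it was -0.02 with WT replicate 1 left out.

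RBCS2B, the middle gene of the chromosome 5 cluster, stood at 2863, 2618 and 3084 FPKM in overexpressor replicates 1, 2 and 3, and at 1007, 3171 and 3101 FPKM in WT replicates 1, 2 and 3. The 3 overexpressor libraries lay below WT replicates 2 and 3 and above WT replicate 1, which held 32.1% of the mean of the other pair. Its log2 fold change was 0.41 (95% interval -0.73 to 1.55, limma adjusted p = 0.822), and -0.14 without WT replicate 1 (interval -0.44 to 0.17, limma adjusted p = 0.757). Of all genes tested, 3.89% lay at least as far below WT replicates 2 and 3 in WT replicate 1, on the log2 scale.

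RBCS3B, the second small subunit gene by mean level, had a pattern between these. It stood at 4874, 3493 and 3818 FPKM in overexpressor replicates 1, 2 and 3, and at 2485, 4532 and 4517 FPKM in WT replicates 1, 2 and 3. The overexpressor library of highest value lay above all WT libraries and the other pair below WT replicates 2 and 3. The log2 fold change was 0.12 (95% interval -0.60 to 0.84, limma adjusted p = 0.912), and -0.17 without WT replicate 1 (limma adjusted p = 0.789).

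RBCS1B, the least abundant copy, stood at 351, 350.3 and 343 FPKM in overexpressor replicates 1, 2 and 3, and at 279.5, 421 and 402 FPKM in WT replicates 1, 2 and 3. The overexpressor values were nearly equal and fell between WT replicate 1 and the other WT pair. Its log2 fold change was -0.06 (95% interval -0.48 to 0.37, limma adjusted p = 0.930). Without WT replicate 1 it was -0.24 (95% interval -0.43 to -0.05), with an unadjusted limma p of 0.0206, as 10.6% of all genes had a p under 0.05 in that fit, and a limma adjusted p of 0.376. With sample quality weights, which reweight every library, RBCS1B was the only member called, at a log2 fold change of -0.27 (limma adjusted p = 0.0341), in a fit that called 10.5% of all genes, 6.03% as lower.

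The composition of the small subunit pool was described without a test. RBCS1A made up 57.7, 61.3 and 54.5% of summed RBCS FPKM in overexpressor replicates 1, 2 and 3, and 69.7, 55.3 and 55.8% in WT replicates 1, 2 and 3. The overexpressor mean was 57.8 ± 3.39% and the WT mean 60.2 ± 8.16% (SD, n = 3 each). The difference was -2.41 percentage points over all libraries and 2.30 without WT replicate 1, so its sign rested on that library. RBCS2B took 15.0 to 19.4% in the overexpressor, against 8.10% in WT replicate 1 and 17.5 and 17.1% in WT replicates 2 and 3. Summed over the 4 genes, the level was 17241 ± 1679 FPKM in the overexpressor and 16242 ± 3304 FPKM in WT (SD, n = 3 each). The overexpressor mean was 999.5 FPKM above that of all WT libraries, and the difference was -908 FPKM from the mean of WT replicates 2 and 3 (18149.5 FPKM), so its direction rested on WT replicate 1.

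**Figure D2:**
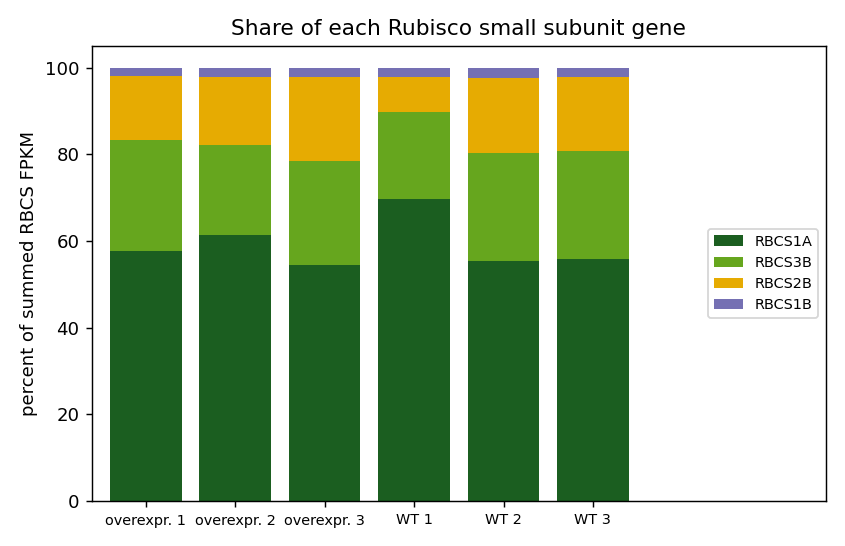
Stacked percent of summed RBCS FPKM taken by each small subunit gene in each library, the 3 overexpressor plants to the left of the 3 WT plants. RBCS1A holds 69.7% in WT replicate 1 and 54.5 to 61.3% in the other 5 libraries.

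The promoter of RBCS2B is shown because this gene varied most among the members. The 250 bases before its annotated start (TAIR10.1, minus strand, from RefSeq coordinates) hold a G-box (CACGTG) and 3 I-boxes (GATAAG), both known as light-responsive elements of small subunit genes, here in capitals, on either strand.
RBCS2B promoter, chr5:15382072-15382321: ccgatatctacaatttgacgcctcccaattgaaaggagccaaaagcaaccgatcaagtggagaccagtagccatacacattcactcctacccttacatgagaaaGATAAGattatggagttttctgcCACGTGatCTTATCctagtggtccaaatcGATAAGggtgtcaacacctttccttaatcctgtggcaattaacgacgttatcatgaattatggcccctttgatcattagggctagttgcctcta

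The G-box begins 123 bases and the I-boxes 146, 115 and 94 bases before the start, without overlap. In windows of the same length, 6.49% of 27443 protein-coding genes held a G-box and 12.3% an I-box. Of the 10 members, 3 held a G-box (RBCS2B, PRK and HCEF1) and 3 an I-box (RBCS2B, RCA and HCEF1). TATAAA, searched as well, was found in 4 members and in 47.3% of all windows. For RBCS1A the window precedes the start of its longest transcript, and a shorter one starts further downstream. The windows of the small subunit copies need not cover matching stretches. That of RBCS1B ends, at its annotated start, in a stretch like the one before the I-box at 146 bases in RBCS2B. Bases beyond the windows were not searched, so a copy without a match here may still hold these elements. These are matches of letters only.

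Rubisco activase and the other enzymes were steadier than RBCS1B, RBCS2B and RBCS3B. Across the 6 libraries GAPA varied 1.27-fold and SBPASE 1.26-fold, close to the 1.28-fold of RBCS1A. RCA, which frees the active sites of Rubisco from inhibiting sugar phosphates, stood at 3589.8, 3799.9 and 3661 FPKM in overexpressor replicates 1, 2 and 3, and at 3914, 4189 and 4000.5 FPKM in WT replicates 1, 2 and 3. It was the only member whose groups did not overlap, with all overexpressor libraries lower, as in 9.69% of all genes tested, while 14.5% did not overlap in either direction. The log2 fold change was -0.13 (SE 0.14, 95% interval -0.46 to 0.20, limma adjusted p = 0.809), and -0.15 without WT replicate 1 (limma adjusted p = 0.712).

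PRK, which makes ribulose bisphosphate, stood at 893, 971 and 909 FPKM in overexpressor replicates 1, 2 and 3, and at 1008, 998 and 961 FPKM in WT replicates 1, 2 and 3. Only overexpressor replicate 2 reached into the WT range. The log2 fold change was -0.10 (95% interval -0.35 to 0.15, limma adjusted p = 0.809), and -0.08 with WT replicate 1 left out. Unlike the small subunit genes, PRK and HCEF1 were not low in WT replicate 1, where they stood at 103% and 106% of the mean of WT replicates 2 and 3.

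GAPA, a catalytic subunit of the reducing step, stood at 1504, 1424 and 1419 FPKM in overexpressor replicates 1, 2 and 3, and at 1269, 1610.0 and 1555 FPKM in WT replicates 1, 2 and 3. GAPB, its partner subunit, stood at 971, 987 and 955 FPKM in the overexpressor and at 877, 1032 and 965 FPKM in WT. In both genes the lowest and the highest library were WT plants, with the overexpressor between them. The log2 fold changes were -0.02 for GAPA (95% interval -0.36 to 0.32, limma adjusted p = 0.966) and 0.02 for GAPB (-0.25 to 0.30, 0.957). With WT replicate 1 left out, both were negative, at -0.13 for GAPA and -0.04 for GAPB. The ratio of GAPA to GAPB lay between 1.44 and 1.61 in all 6 libraries.

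SBPASE, which removes a phosphate from sedoheptulose bisphosphate, stood at 433, 455 and 438 FPKM in overexpressor replicates 1, 2 and 3, and at 374, 472 and 455 FPKM in WT replicates 1, 2 and 3. HCEF1, which does the same for fructose bisphosphate, stood at 353, 405 and 365 FPKM in the overexpressor and at 396, 384 and 359.7 FPKM in WT. The groups overlapped in both. The log2 fold changes were 0.03 for SBPASE (95% interval -0.26 to 0.33, limma adjusted p = 0.941) and -0.02 for HCEF1 (-0.27 to 0.22, 0.952). Both changed sign with WT replicate 1 left out, to -0.07 for SBPASE and 0.0077 for HCEF1.

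The intervals set what these data could still hold. For the 6 genes outside the small subunit family, the 95% intervals ended within 0.725-fold and 1.25-fold of WT, and for RBCS2B they reached 0.603-fold and 2.92-fold. The median absolute log2 fold change was 0.05 over the 10 members and 0.13 over all genes tested, and without WT replicate 1 it was 0.11 over both. Over the 183 genes with a mean at or above that of the lowest member it was 0.15 in either fit. In bulk samples, fewer cells of a type and less RNA per cell cannot be told apart.

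**Figure D3:**
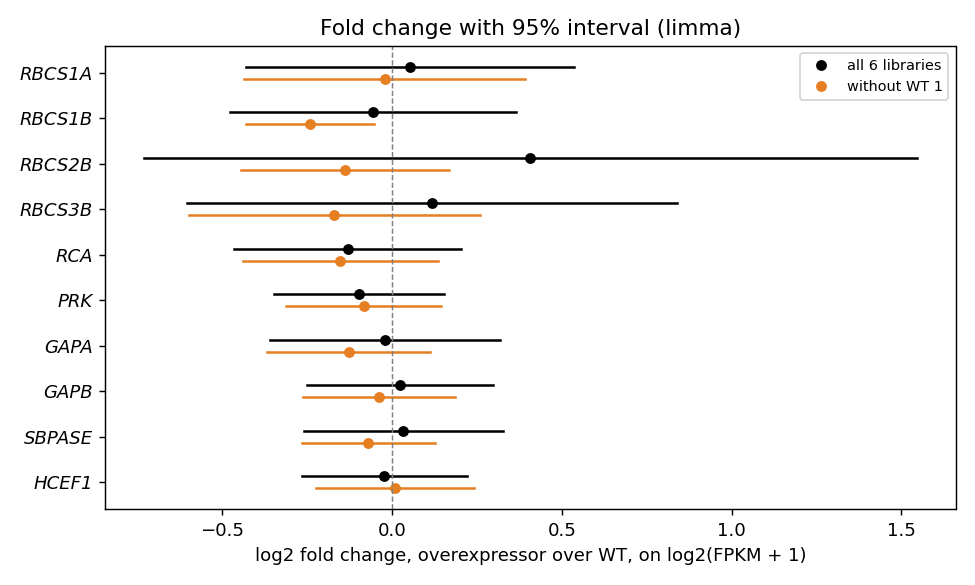
Log2 fold change, overexpressor over WT, with its 95% interval from limma for each member, over all 6 libraries (black) and without WT replicate 1 (orange). All intervals from 6 libraries cross 0, and that of RBCS2B, from -0.73 to 1.55, is the widest.

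A clock gene and a light-harvesting gene differed widely among the WT libraries. GI, a daytime clock gene, stood at 24.3, 44.2 and 30.9 FPKM in overexpressor replicates 1, 2 and 3, and at 94.7, 6.85 and 6.98 FPKM in WT replicates 1, 2 and 3. CAB2, a light-harvesting gene, stood at 131, 171 and 142 FPKM in the overexpressor and at 289.5, 8.68 and 8.99 FPKM in WT. Both were highest in WT replicate 1, where all 4 small subunit genes were lowest, and both were lower in WT replicates 2 and 3 than in any overexpressor library. Without WT replicate 1 the log2 fold change was 3.91 for CAB2, which was called (limma adjusted p = 0.000481). It was 2.07 for GI, which was not called (limma adjusted p = 0.0528). Windows shared with other genes were not searched for CAB2 or GI. LHY, another clock gene, was under the filter, at 0.482, 0.8326 and 0.467 FPKM in overexpressor replicates 1, 2 and 3. In WT replicates 1, 2 and 3 it stood at 1.18, 0.8330 and 0.782 FPKM. Its levels in WT replicates 2 and 3 were not below those of every overexpressor library. Markers of cell types also differed in WT replicate 1. Summed over all 3 epidermis markers, the level was 608 to 746 FPKM in the overexpressor and 271, 834 and 776 FPKM in WT replicates 1, 2 and 3. Summed over all 5 xylem markers it was 630.2 to 962 FPKM in the overexpressor and 141, 765 and 816 FPKM in WT, and over all 3 phloem markers 152 to 155 and 132, 173 and 179.6 FPKM in the same order. All 11 markers were above 0 in every library. The part of these genes in the small subunit values was not tested.

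The wider pathway also had no calls. Of 56 other genes tested in 6 lists, limma called 0 in either direction, 0 had an unadjusted limma p under 0.05, and limma-voom gave 0 on both criteria. The lists were written by locus, and some of their genes carry only a family name in RefSeq.

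Of 12 other Calvin cycle enzymes, 8 had positive log2 fold changes (median 0.04), and 5 without WT replicate 1 (median -0.01). FBA2, a chloroplast aldolase, stood at 1293 to 1413 FPKM in the overexpressor and 1302 to 1559 FPKM in WT. PGK1, a phosphoglycerate kinase, stood at 706 to 722 and 634 to 728 FPKM in the same groups. The transketolase TKL2 had the largest log2 fold change (0.34, limma adjusted p = 0.805), at 22.8 to 27.3 FPKM in the overexpressor, against 11.5 FPKM in WT replicate 1 and 24.9 and 26.1 FPKM in WT replicates 2 and 3. With WT replicate 1 left out, its log2 fold change was -0.02. Its sister TKL1 stood at 664 to 712 FPKM in the overexpressor and 656 to 702 FPKM in WT.

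Carbonic anhydrases, which interconvert carbon dioxide and bicarbonate, followed RBCS2B in being low in WT replicate 1. BCA1 stood at 1377, 1096 and 1291 FPKM in overexpressor replicates 1, 2 and 3, and at 434, 1247 and 1201 FPKM in WT replicates 1, 2 and 3. BCA2 stood at 461, 379.8 and 439.8 FPKM in the overexpressor and at 192, 485 and 472 FPKM in WT. Their log2 fold changes were 0.53 and 0.27 (limma adjusted p = 0.805 and 0.849), and 0.03 and -0.17 without WT replicate 1. The triose phosphate translocator TPT, which exports the product, stood at 522 to 550.1 FPKM in the overexpressor and 457 to 537 FPKM in WT.

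Regulators and assembly factors went the other way in WT replicate 1. It was the highest library in 9 of 10 genes for CP12 proteins, which bind PRK and glyceraldehyde-3-phosphate dehydrogenase in the dark, and for thioredoxins, which activate Calvin cycle enzymes in the light. It was also the highest in 9 of 11 genes for Rubisco assembly and upkeep, against 1 of the 10 members, PRK. The median log2 fold changes were -0.06 and -0.03. Without WT replicate 1 they were 0.02 and 0.12.

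CP12-2 stood at 1248 to 1383 FPKM in the overexpressor and 1367 to 1451 FPKM in WT, CP12-1 at 759 to 886 and 807 to 1006 FPKM, and TRXM1 at 371 to 392 and 372 to 399.7 FPKM. In 1 of the 10 genes of this list the groups did not overlap, with the overexpressor lower, against 9.69% of all genes tested. This was TRXF2, an f-type thioredoxin, at 40.1 to 43.9 FPKM in the overexpressor and 44.1 to 59.4 FPKM in WT (log2 fold change -0.20, limma adjusted p = 0.805). Its level in WT replicate 1 was the 59.4 FPKM, and without that library the log2 fold change was -0.07.

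Among assembly genes, AT3G04550, annotated as a Rubisco accumulation factor-like protein, stood at 112, 173 and 129 FPKM in overexpressor replicates 1, 2 and 3, and at 237, 99.0 and 91.8 FPKM in WT replicates 1, 2 and 3. The chaperonin gene CPN20 stood at 125 to 155 FPKM in the overexpressor and 118 to 164 FPKM in WT, and AT3G47650, a DnaJ-like protein, at 144 to 172 and 153 to 182 FPKM. RBCX2, a homologue of a cyanobacterial Rubisco chaperone, had the largest absolute log2 fold change (-0.17, against 0.01 once WT replicate 1 was left out; limma adjusted p = 0.805 over all libraries). It stood at 37.9 to 39.7 FPKM in the overexpressor, against 56.2 FPKM in WT replicate 1 and 39.8 and 37.7 FPKM in WT replicates 2 and 3. RBCX1, chosen after seeing its values, was at 126, 149 and 132 FPKM in the overexpressor and at 219, 90.0 and 89.7 FPKM in WT. Its log2 fold change was 0.16 over all libraries (limma adjusted p = 0.902). Without WT replicate 1 it was 0.58, with a limma adjusted p of 0.101.

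Photorespiration, which salvages the product of Rubisco's oxygenation, had a median log2 fold change of -0.08 over 13 tested genes, 3 of them positive. Without WT replicate 1 it was also -0.08, with 0 positive. Over all libraries the groups did not overlap in 2 of the 13, with the overexpressor lower, against 9.69% of all genes tested. These were GOX1 (948 to 1071 against 1122 to 1249 FPKM) and GOX2 (554 to 590 against 605 to 678 FPKM), chosen after seeing their values. SHM1, the mitochondrial serine hydroxymethyltransferase, stood at 1405 to 1522 FPKM in the overexpressor and 1309 to 1544 FPKM in WT, GGT1 at 1071 to 1141 and 1124 to 1203 FPKM, and GLDP1 at 993 to 1120.2 and 1049 to 1251 FPKM. AT1G11860, annotated as a glycine cleavage T-protein, had the largest log2 fold change (0.23, against -0.08 once WT replicate 1 was left out; limma adjusted p = 0.827 over all libraries). It stood at 424 to 489 FPKM in the overexpressor, against 258 FPKM in WT replicate 1 and 499 and 483 FPKM in WT replicates 2 and 3. PGLP1 stood under the filter at 0.312 to 0.476 FPKM in the overexpressor and 0.347 to 0.355 FPKM in WT, and 87.2% of its 100-base windows occur in another gene, AT5G36790.

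The cytosolic counterparts of these enzymes, which serve glycolysis and sucrose synthesis, had 6 of 7 positive log2 fold changes (median 0.05), and 7 of 7 without WT replicate 1 (median 0.10). GAPC2 stood at 590.4 to 600.4 FPKM in the overexpressor and 492 to 599.7 FPKM in WT, and the cytosolic triose phosphate isomerase at 192 to 208 and 181 to 198 FPKM. The cytosolic fructose-bisphosphatase lay between 142 and 169.6 FPKM in the overexpressor and at 211, 127 and 122 FPKM in WT replicates 1, 2 and 3. FBA8, a cytosolic aldolase, had the largest log2 fold change (0.38, against 0.10 once WT replicate 1 was left out; limma adjusted p = 0.805 over all libraries). It stood at 130.1 to 158 FPKM in the overexpressor, against 75.4 FPKM in WT replicate 1 and 133 and 139 FPKM in WT replicates 2 and 3.

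**Figure D4:**
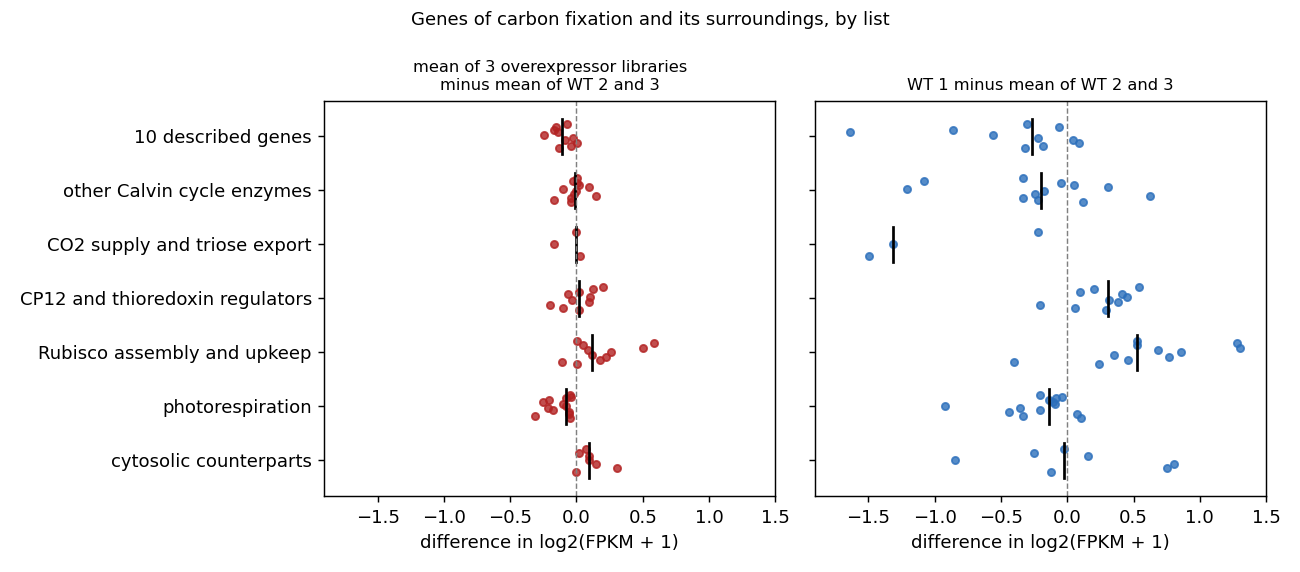
Difference in log2(FPKM + 1) from the mean of WT replicates 2 and 3, a point per tested gene and a black bar at each list's median, for the mean of the 3 overexpressor libraries (left, red) and for WT replicate 1 (right, blue). The overexpressor medians lie between -0.11 and 0.12, while WT replicate 1 runs from -1.32 for carbon dioxide supply and triose export to 0.53 for Rubisco assembly.

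Genes outside the set with the pattern most like the mean of the 10 members over the 6 libraries were KCS20, KCS6, PRAF1 and AT1G70280, by root mean square distance between z-scored profiles (0.0840 to 0.104). The mean profile of the members was -0.28 in WT replicate 1 and -0.02 to 0.14 in the other 5, as centred log2 values. KCS6, a very long chain fatty acid elongase of the epidermis, stood at 321, 317 and 281 FPKM in overexpressor replicates 1, 2 and 3, and at 184, 372 and 344 FPKM in WT replicates 1, 2 and 3. KCS6 is also among the epidermis markers summed above. Of the members, GAPA was nearest that mean (0.252) and HCEF1 farthest (1.68).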

How the data were processed

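Per the labels' protocols, RNA was extracted from stems and NEBNext Ultra libraries were made. Per the submitters' processing notes, HISAT2 was among the tools used, and no source used here names its version, the annotation or the counting program. The authors deposited FPKM values of 24434 genes in 6 libraries, each column assigned by its name, with 0 left over. FPKM multiplied by TAIR10.1 exon length gave whole reads for 100% of values within 0.1 reads, so depth was recovered.

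limma 3.58.1 (R 4.3.3) was run on log2(FPKM + 1) with an intensity trend, for the 16870 genes whose mean reached 1 FPKM. It was two-sided and unblocked, and was tested on simulated data. Fold changes are overexpressor over WT and understate changes of low genes. An exact permutation test of 3 against 3 cannot go below p = 0.1. Coding sequences were aligned with mafft 7.526. Alternatives covered pseudocount, filter, scaling, recovered reads, library weights, a replicate block and left-out libraries.

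All 10 members were named. Of each list without calls, the 3 genes of highest mean FPKM and the gene of largest absolute fold change were named, with GI, LHY and CAB2. Members and lists were chosen with earlier results of these data known. The p-values measure spread between these plants and library preparation together.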

Additional observations from a re-analysis of the deposited data

How the results depend on the processing

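Over all genes, limma called 2 genes with the main settings, 4 with no filter, 1 with limma-voom on recovered reads, 1768 with sample quality weights and 0 with the replicate number as a block (395 at an unadjusted p under 0.05). Leaving out a library gave 1 to 23, the 23 without WT replicate 1. Members called stayed at 0 in every alternative except sample quality weights, which called 1, RBCS1B. List genes called stayed at 0 except with the same weights, which called 3. Leaving out a library gave 0 to 0 for both counts. The RBCS1A share difference was -1.93 points on recovered reads and -4.88 to 2.30 with a library left out.

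Log2 fold changes of members changed sign in some fits, none of them called. With sample quality weights they were -0.15 for RBCS1A, -0.056 for RBCS2B, -0.22 for RBCS3B, -0.080 for GAPB and -0.089 for SBPASE. Median-ratio scaling gave 0.023 for GAPA and 0.022 for HCEF1, and limma-voom 0.028 and 0.026. With a library left out the ranges were -0.025 to 0.15 for RBCS1A, -0.24 to 0.053 for RBCS1B, -0.14 to 0.69 for RBCS2B, -0.17 to 0.26 for RBCS3B, -0.13 to 0.044 for GAPA, -0.040 to 0.078 for GAPB, -0.070 to 0.097 for SBPASE and -0.080 to 0.018 for HCEF1. RCA and PRK kept a negative sign in every fit. The cause was not tested. Deviations of same-numbered libraries from their group means correlated at -0.60, -0.59 and 0.03 across genes, and not every library correlated best with its own number. Such deviations cancel out within a group, and WT replicate 1 stood apart. These correlations therefore cannot decide whether replicate numbers pair the samples.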
